A study of Mus musculus with 8 samples.

Results

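The genes described here are 42 genes of mitosis and chromosome segregation, out of 55401 genes in a table of RNA sequencing counts from mouse prospermatogonia. They were chosen by name: cyclins and kinases of the step from G2 into mitosis, and genes of the kinetochore, the spindle and cytokinesis, taken by Ensembl identifier through the GENCODE M21 annotation. All 42 were found, and all 42 were among the 24005 genes that passed a filter on low counts and were tested. The 8 libraries were from cells at E17.5 of embryonic life, 4 with the genotype label Tet1-/- (KO 1 to KO 4) and 4 with the label Tet1+/+ (WT 1 to WT 4), and the label of every library gives batch 1. The kind of Tet1 allele, the strain, the sorting of the cells and the number of animals behind a library are not stated in the labels. The library names of KO 1 and WT 1 share a number whose meaning the labels do not give. Replicates may not be separate animals or litters, so p-values measure the spread between these libraries, which may be technical. By its title, the series concerns roles of TET1 that do not need its catalytic activity in male germ cells.

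Mitosis is driven by cyclin-dependent kinase 1 bound to a cyclin. Polo and Aurora kinases then build the spindle, kinetochores tie chromosomes to its microtubules, and the spindle checkpoint holds back the anaphase-promoting complex (APC/C) until every kinetochore is attached. Once active, the APC/C has securin and cyclin B destroyed, separase cuts cohesin, and the cell divides at the midzone. Prospermatogonia are male germ cells of the fetal testis that stop dividing before birth and enter the cell cycle again after it. Many mitotic genes carry 2 kinds of short word in their promoters: the cell cycle genes homology region (CHR, TTTGAA or TTTAAA), which the MuvB complex binds, and CCAAT boxes, which NF-Y binds.

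The promoters of 6 members are shown. In each role group the member with the lowest p among those holding both words was taken, and the 6 of these with the lowest p were kept, so that Cenpa of the kinetochore group is not shown. Each is the run of 250 bases before a RefSeq transcription start, on build GRCm38.p6, 5′ to 3′ on the gene's strand. Capitals mark CHR words and CCAAT boxes, on either strand (TTCAAA is TTTGAA and ATTGG is CCAAT on the other strand).
Mki67: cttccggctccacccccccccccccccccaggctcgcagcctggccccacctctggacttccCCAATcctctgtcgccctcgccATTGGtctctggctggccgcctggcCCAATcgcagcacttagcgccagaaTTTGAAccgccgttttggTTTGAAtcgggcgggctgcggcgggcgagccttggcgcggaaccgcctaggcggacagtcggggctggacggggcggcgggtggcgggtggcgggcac
Cdk1: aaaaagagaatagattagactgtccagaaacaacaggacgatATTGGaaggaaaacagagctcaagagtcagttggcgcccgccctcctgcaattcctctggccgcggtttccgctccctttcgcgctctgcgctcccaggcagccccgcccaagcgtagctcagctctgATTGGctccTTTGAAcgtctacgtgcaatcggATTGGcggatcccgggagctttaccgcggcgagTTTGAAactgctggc
Plk1: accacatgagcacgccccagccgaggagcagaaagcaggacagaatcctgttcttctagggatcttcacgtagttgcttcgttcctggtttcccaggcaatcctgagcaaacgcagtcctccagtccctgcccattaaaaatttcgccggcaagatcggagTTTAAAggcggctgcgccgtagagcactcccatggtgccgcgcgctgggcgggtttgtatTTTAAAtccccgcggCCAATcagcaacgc
Ube2c: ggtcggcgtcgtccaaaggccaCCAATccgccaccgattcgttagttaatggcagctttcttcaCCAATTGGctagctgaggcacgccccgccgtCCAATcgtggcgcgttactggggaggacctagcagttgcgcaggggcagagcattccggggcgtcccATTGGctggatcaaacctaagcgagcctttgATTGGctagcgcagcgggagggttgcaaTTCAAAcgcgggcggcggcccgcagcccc
Kif11: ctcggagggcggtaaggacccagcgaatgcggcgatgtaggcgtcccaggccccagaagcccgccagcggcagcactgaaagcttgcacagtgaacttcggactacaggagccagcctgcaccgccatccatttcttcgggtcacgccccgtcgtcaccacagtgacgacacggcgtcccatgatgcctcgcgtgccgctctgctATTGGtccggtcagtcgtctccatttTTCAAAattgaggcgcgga
Prc1: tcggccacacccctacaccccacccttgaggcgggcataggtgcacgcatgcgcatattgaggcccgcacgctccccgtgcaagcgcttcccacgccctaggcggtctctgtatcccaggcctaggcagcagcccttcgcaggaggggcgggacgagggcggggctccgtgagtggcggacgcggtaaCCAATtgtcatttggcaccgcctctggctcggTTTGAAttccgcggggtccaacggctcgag
The Mki67 stretch is chr7:135716380-135716629 and the Cdk1 stretch is chr10:69352913-69353162, both on the minus strand. On the plus strand lie Plk1 at chr7:122159185-122159434, Ube2c at chr2:164769679-164769928, Kif11 at chr19:37376132-37376381 and Prc1 at chr7:80294226-80294475. In Kif11, Ube2c, Prc1 and Plk1 a CHR word began 19, 29, 30 and 29 bases before the start, and in Cdk1 it began 15 bases before it. In Mki67 the nearer of 2 CHR words began 98 bases before the start. Ube2c held 6 CCAAT boxes, of which a pair shares bases, and Cdk1 held 3.

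Tet1 (chr10:62804570-62908996, minus strand), the gene the genotype labels name, went against those labels. Its level was 30.3, 30.2, 32.8 and 34.2 CPM (counts relative to a TMM-scaled library size) in WT 1 to WT 4. In KO 1 to KO 4 it was 129, 145, 75.8 and 147 CPM (log2 difference 1.97, SE 0.178, adjusted p = 3.03e-06, edgeR quasi-likelihood test). Counts over the whole gene do not show whether an exon is missing or whether protein is made. For this reason the groups are called the libraries labelled KO and the libraries labelled WT, and every direction below is that of the labels.

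Total counts ran from 13820764 to 20115250 per library, and a count of 0 allowed up to 0.149 to 0.217 CPM (3 counts, counting error only). The prospermatogonia label was checked against 10 germ cell markers, of which none had a count of 0. Their summed level was 1841 to 2301 CPM in the libraries labelled KO and 1683 to 2073 CPM in those labelled WT, and 5 rose, 1 fell (Mael, 419.9 ± 29.1 to 192 ± 23 CPM) and 4 did not pass. Markers of other testis cells were high in single libraries, and most tested markers of macrophages and endothelium were lower with the KO label. KO 4 had 1811 CPM of 8 Leydig cell markers, against 16.9 to 24.9 CPM in KO 1 to KO 3 and 18.8 to 36.5 CPM in the libraries labelled WT. It also had 95.8 CPM of 8 Sertoli cell markers, against 25.4 to 26.4 CPM in KO 1 to KO 3 and 16.7 to 29.4 CPM in the libraries labelled WT. Of this sum Inha made up 58.3 CPM and Gata4 17.4 CPM, and the other 6 Sertoli markers summed to 20.11 CPM in KO 4, 16 to 16.2 CPM in KO 1 to KO 3 and 9.53 to 17.3 CPM in the libraries labelled WT. WT 2 had the most stroma marker counts of its group (189 CPM against 128 to 131 CPM) and the fewest germ cell marker counts. In the libraries labelled KO the stroma sum was 137 to 188 CPM. Sums for endothelium were 60.6 to 72.4 CPM with the KO label and 67.3 to 79.6 CPM with the WT label, for macrophages 5.62 to 10.7 and 13.83 to 16.6 CPM, and for erythroid cells 12.8 to 21.4 and 18.2 to 23.0 CPM. The macrophage sums did not overlap. Of these sums Fcgr1 made up 5.11 to 7.84 CPM with the WT label and 0.113 to 1.03 CPM with the KO label. Taken singly, the groups were apart for 2 of 6 macrophage markers, Fcgr1 and Adgre1, and overlapped for the other 4. By the edgeR test, 0 macrophage markers were higher and 3 lower of 4 tested, and 1 endothelial marker was higher and 4 lower of 5. For Leydig markers the counts were 5 and 0 of 7, for Sertoli markers 3 and 1 of 7, for stroma 2 and 1 of 9, and for erythroid cells 1 and 1 of 4. The groups overlapped for all 8 Leydig markers, whose sum was far above the other libraries in KO 4 alone. Defining markers with a count of 0 were Insl3 of Leydig cells in KO 1, KO 2 and WT 4, Fshr of Sertoli cells in KO 4, and Adgre1 in KO 2 and C1qa in WT 4 of macrophages. The part of these cells in the results below was not tested. Without KO 4 and WT 2 the members that rose numbered 39, and the median log2 difference of all members was 1.28. Leaving out these libraries does not bear on the macrophage and endothelial markers that were lower with the KO label. Nor does it bear on the endothelial marker Pecam1, which was higher (15.3 ± 1.78 to 30.5 ± 7.14 CPM). In bulk RNA, a larger share of cells that express a gene cannot be told apart from more RNA of that gene per cell.

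Of the 42 members, 38 were higher in the libraries labelled KO, 0 were lower and 4 did not pass (edgeR, Benjamini-Hochberg adjusted p under 0.05 over all genes tested). No member had a log2 difference below 0, so 0 were lower at an unadjusted p under 0.05, and 0 were lower with DESeq2. The background is broad: 25.3% of all tested genes were higher by the same call and 28.2% were lower. Among 10021 protein-coding genes in the abundance range of the members, 43.6% were higher. The split over all genes depends on scaling: 6083 were higher and 6770 lower here, 4033 and 8882 with upper-quartile scaling, and 4099 and 7529 with scaling on ribosomal protein genes. The median log2 difference (libraries labelled KO minus those labelled WT) was 1.33 over the members, -0.05 over all tested genes and 0.23 over the protein-coding genes of that range. For 38 members every library labelled KO was above every library labelled WT, which held for 23.2% of all tested genes. The groups did not overlap for 36 members with upper-quartile scaling, and for 36 with scaling on ribosomal protein genes. A log2 difference of 1 or more was reached by 25 members and of 2 or more by 5, which 8.78% and 1.13% of all tested genes also reached and passed. These 5 were Mki67 (chr7:135689784-135716361, minus strand), Cdk1 (chr10:69335146-69352938, minus strand), Spc24 (chr9:21755442-21760303, minus strand), Aurkb (chr11:69045647-69051664, plus strand) and Hmmr (chr11:40701395-40733422, minus strand), as whole genes in GENCODE M21.

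**Figure D1:**
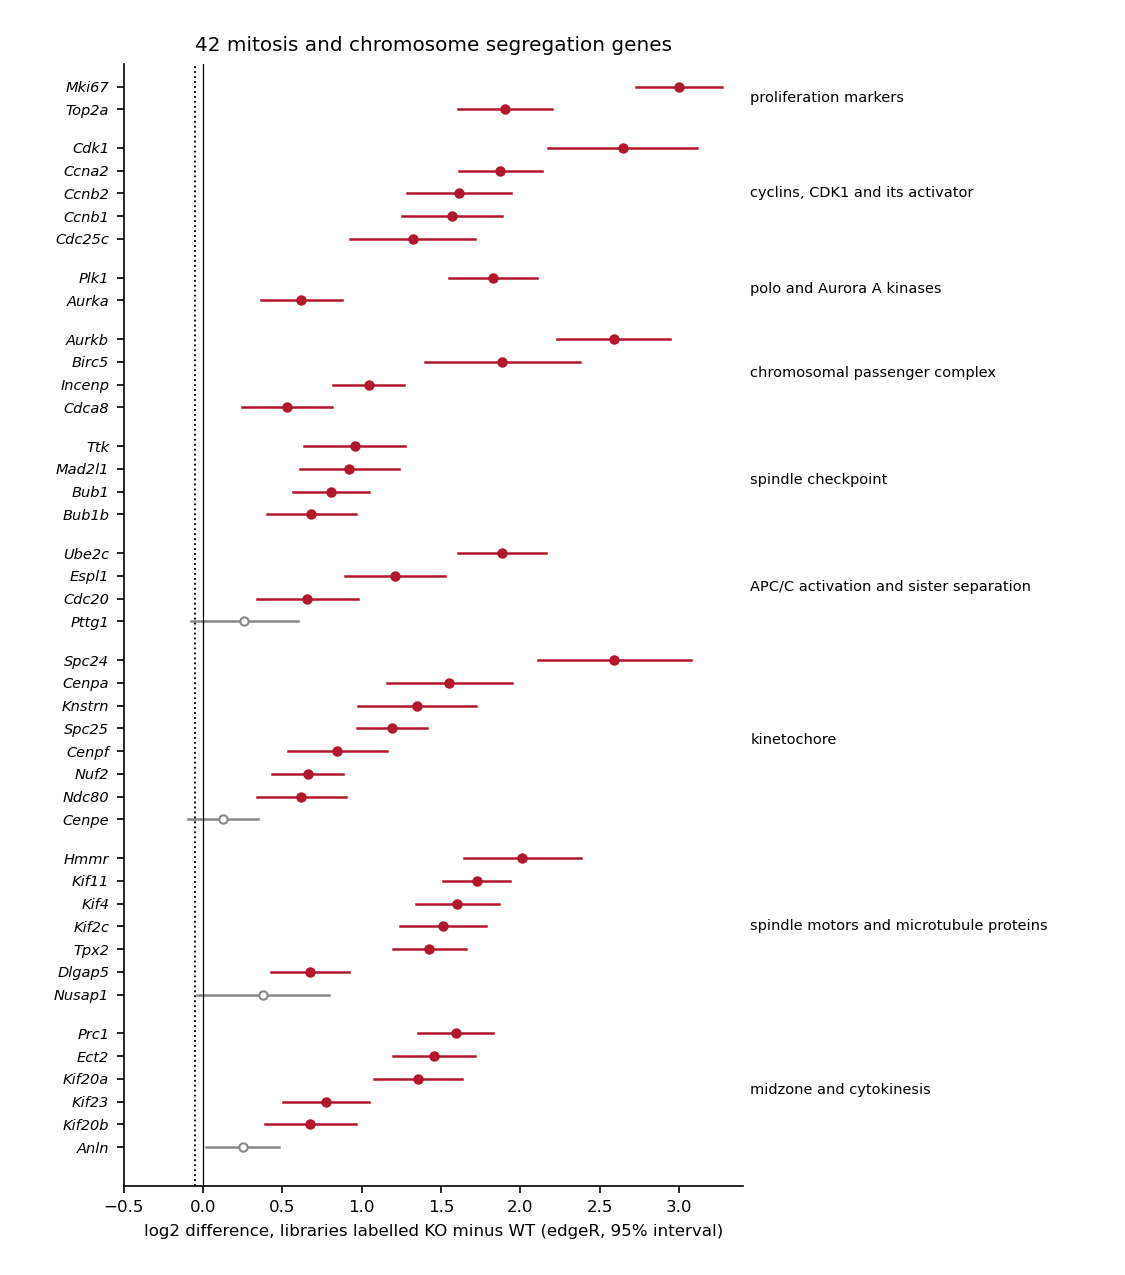
Log2 difference between the libraries labelled KO and WT for each of 42 members, grouped by role, with 95% intervals from the edgeR fit. Filled red points passed and open grey points did not, and the dotted line is the median of all tested genes (-0.05). Every point lies to the right of 0, from 0.12 for Cenpe to 3.00 for Mki67.

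Both proliferation markers rose. Mki67 encodes the Ki-67 protein that coats mitotic chromosomes and marks cycling cells. Its level was 60.3, 72.8, 78.8 and 78.6 CPM in WT 1 to WT 4 and 602, 504, 559.9 and 657 CPM in KO 1 to KO 4 (log2 difference 3.00, SE 0.126, adjusted p = 6.54e-09). The lowest library labelled KO was far above the highest labelled WT, and the ratio of the means was 8.0 (KO label over WT label). Top2a, the topoisomerase that untangles sister chromatids, had 222, 196, 306 and 267 CPM in WT 1 to WT 4. In KO 1 to KO 4 it had 885, 879, 1019.7 and 928 CPM (log2 difference 1.90, SE 0.137, adjusted p = 5.64e-07), again with a wide gap between the groups.

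All 5 genes of the cyclin and CDK1 group rose, with a median log2 difference of 1.61. Ccna2 encodes cyclin A2, active in S phase and up to mitotic entry. It had 20.3, 21.6, 23.1 and 27.6 CPM in WT 1 to WT 4 and 80.9, 91.4, 77.7 and 89.3 CPM in KO 1 to KO 4 (log2 difference 1.87, SE 0.121, adjusted p = 2.7e-07). The groups did not overlap, and WT 4 was the highest of its group. Cdc25c, a phosphatase that activates CDK1, had 5.43, 5.63, 5.11 and 4.08 CPM in WT 1 to WT 4. In KO 1 to KO 4 it had 10.5, 14.2, 11.3 and 14.6 CPM (log2 difference 1.32, SE 0.183, adjusted p = 7.01e-05), the highest p of the group. The mitotic kinase gene Cdk1 went from 3.48 ± 0.737 to 21.9 ± 5.17 CPM (2.65), where means carry their SD over 4 libraries and the log2 difference follows in brackets. Its cyclins Ccnb1 and Ccnb2 went from 28.4 ± 4.49 to 84.1 ± 13.3 CPM (1.57) and from 11.7 ± 0.332 to 35.9 ± 7.15 CPM (1.61).

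Both genes of the polo and Aurora A kinase group rose. Plk1, the polo kinase needed for centrosome maturation and exit from G2, had 12.2, 10.05, 11.5 and 11.2 CPM in WT 1 to WT 4. It had 40.7, 43.3, 33.7 and 42.2 CPM in KO 1 to KO 4 (log2 difference 1.83, SE 0.129, adjusted p = 4.77e-07), and KO 3 was the lowest of its group. Aurka, the Aurora kinase of spindle poles, had 28.6, 24.7, 32.1 and 33.3 CPM in WT 1 to WT 4. In KO 1 to KO 4 it had 44, 48.1, 42.7 and 47.6 CPM (log2 difference 0.62, SE 0.119, adjusted p = 0.000782). The highest library labelled WT (33.3 CPM) lay below the lowest labelled KO (42.7 CPM).

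The chromosomal passenger complex, which corrects faulty attachments and later acts at the midzone, had all 4 of its genes higher. Its kinase gene Aurkb was low in the libraries labelled WT, at 3.23, 4.76, 3.8 and 3.69 CPM in WT 1 to WT 4. In KO 1 to KO 4 it had 21.7, 26.4, 22.4 and 22.5 CPM (log2 difference 2.59, SE 0.165, adjusted p = 2.42e-07), a ratio of means of 6.01. Cdca8, which encodes borealin of the same complex, had 58.2, 55, 80.2 and 74.8 CPM in WT 1 to WT 4 and 107, 98.5, 86.6 and 95 CPM in KO 1 to KO 4 (log2 difference 0.53, SE 0.132, adjusted p = 0.00435). Its groups did not overlap but nearly touched, and it did not pass with upper-quartile scaling (log2 difference 0.29, adjusted p = 0.0641). Birc5, which encodes survivin, went from 7.57 ± 2.64 to 28 ± 2.42 CPM (1.89), and the scaffold gene Incenp from 98.6 ± 7.54 to 203 ± 18 CPM (1.04).

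All 4 spindle checkpoint genes rose, within a narrow range of log2 differences from 0.68 to 0.96. The checkpoint kinase gene Bub1 had 105, 95.6, 126 and 129 CPM in WT 1 to WT 4 and 196, 211, 199 and 192 CPM in KO 1 to KO 4 (log2 difference 0.81, SE 0.111, adjusted p = 6.63e-05). Bub1b encodes BUBR1, which holds the APC/C activator CDC20. It had 120.5, 87.3, 135 and 113 CPM in WT 1 to WT 4 and 183, 207, 165 and 176 CPM in KO 1 to KO 4 (log2 difference 0.68, SE 0.13, adjusted p = 0.00074). The groups overlapped for neither gene, and WT 2 was the lowest of its group for both. Mad2l1, the other inhibitor of CDC20, went from 46.1 ± 9.7 to 87.2 ± 8.1 CPM (0.92), and the kinase gene Ttk from 27.8 ± 5.01 to 53.8 ± 7.87 CPM (0.96).

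**Figure D2:**
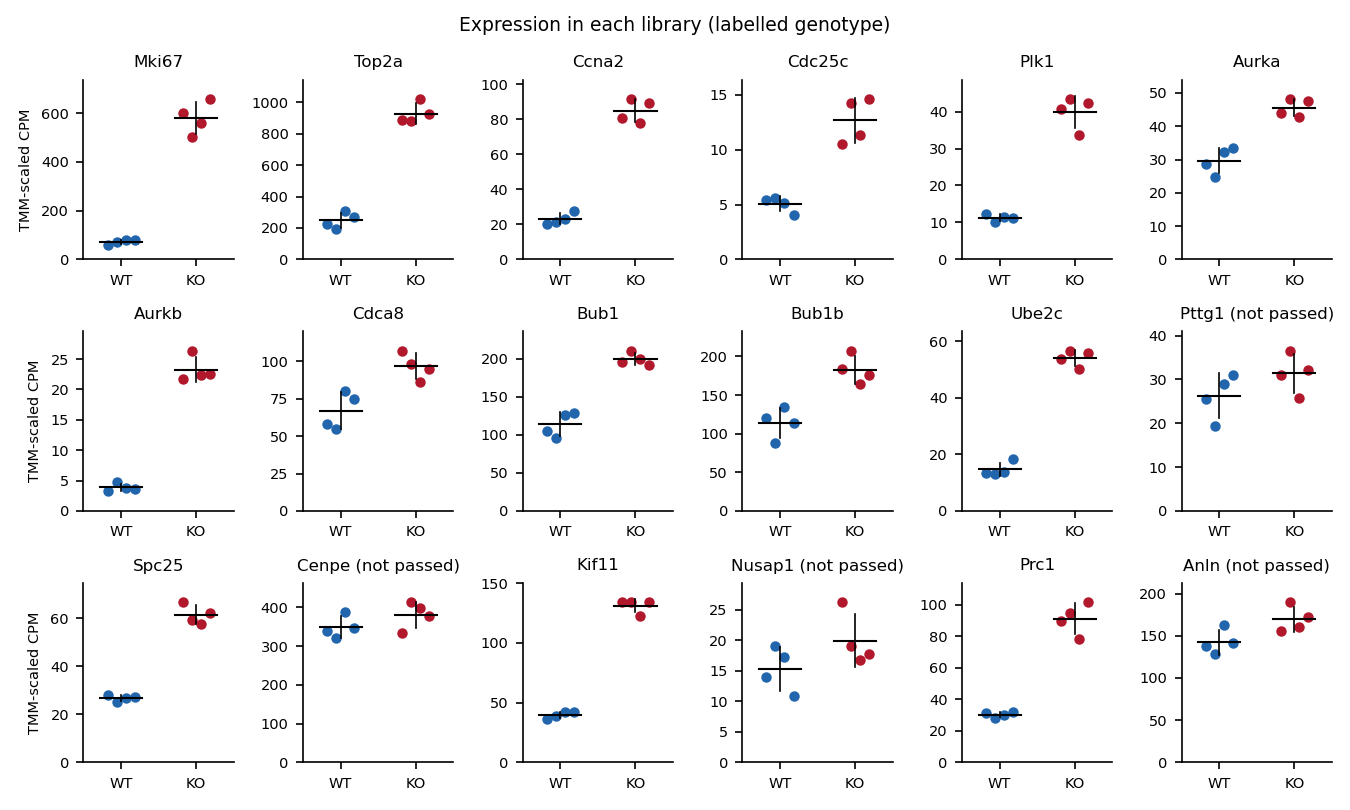
TMM-scaled CPM in each library for the 18 members given by library in the text, with linear axes from 0. Points are libraries (blue labelled WT, red labelled KO), horizontal lines are means and vertical lines are 1 SD. The groups overlap for Pttg1, Cenpe, Nusap1 and Anln and for none of the other genes shown.

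Of the genes that activate the APC/C or act at sister separation, 3 of 4 rose. Ube2c, the E2 enzyme that starts ubiquitin chains on APC/C targets, had 13.4, 13.2, 13.9 and 18.3 CPM in WT 1 to WT 4. It had 53.9, 56.7, 50.3 and 55.7 CPM in KO 1 to KO 4 (log2 difference 1.88, SE 0.13, adjusted p = 4.26e-07). Securin, the separase inhibitor encoded by Pttg1, is a target of the same route. Pttg1 had 25.6, 19.3, 29 and 31 CPM in WT 1 to WT 4 and 31.1, 36.5, 25.8 and 32.2 CPM in KO 1 to KO 4 (log2 difference 0.26, 95% interval -0.08 to 0.60, adjusted p = 0.18). KO 3 lay within the range of the libraries labelled WT. The separase gene Espl1 went from 83.7 ± 19.6 to 193 ± 11.2 CPM (1.21), and the APC/C activator gene Cdc20 from 61.6 ± 14.3 to 97.2 ± 8.12 CPM (0.66).

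Of 8 kinetochore genes 7 rose, over a wide range. Spc25, a subunit of the NDC80 complex that grips microtubules, had 28, 25.2, 27 and 27.4 CPM in WT 1 to WT 4. It had 66.7, 59.1, 57.6 and 62.4 CPM in KO 1 to KO 4 (log2 difference 1.19, SE 0.102, adjusted p = 2.06e-06), with small spread in both groups. Cenpe, the kinesin that carries chromosomes to the spindle equator, had 339.9, 322, 388 and 346 CPM in WT 1 to WT 4 and 334, 413, 398 and 378 CPM in KO 1 to KO 4. Its log2 difference of 0.12 (95% interval -0.10 to 0.35, adjusted p = 0.325) did not pass, and it was -0.05 with ribosomal protein scaling and -0.11 with upper-quartile scaling. The interval leaves out a rise as large as the members' median. Cenpf, a large protein of the outer kinetochore, went from 793 ± 153 to 1425 ± 182 CPM (0.85). The centromeric histone gene Cenpa went from 20.04 ± 5.44 to 58.8 ± 8.18 CPM (1.55) and Knstrn, which encodes a small kinetochore adaptor, from 6.81 ± 0.413 to 17.4 ± 3.41 CPM (1.35).

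Among 7 genes for spindle motors and microtubule proteins, 6 rose with a median log2 difference of 1.51 over the 7. Kif11 encodes the kinesin that pushes spindle poles apart. It had 36.4, 38.5, 41.9 and 42 CPM in WT 1 to WT 4 and 134, 134, 123 and 134 CPM in KO 1 to KO 4 (log2 difference 1.72, SE 0.0975, adjusted p = 1.37e-07). KO 3 stood below the other libraries of its group, which lay close together. Nusap1, which bundles spindle microtubules near chromatin, had 14, 19.1, 17.3 and 10.9 CPM in WT 1 to WT 4 and 26.2, 19, 16.8 and 17.7 CPM in KO 1 to KO 4. It did not pass (log2 difference 0.38, 95% interval -0.04 to 0.79, adjusted p = 0.115). WT 2 was at the level of KO 2, and without WT 2 the gene passed (0.50, adjusted p = 0.0476). So it did without both KO 4 and WT 2 (0.56, adjusted p = 0.0453). Leaving out any other single library gave no pass, and the difference was lowest without KO 1 (0.24, adjusted p = 0.308). Hmmr, a spindle protein that also binds hyaluronan, went from 22.9 ± 6.14 to 92.4 ± 4.82 CPM (2.01). The microtubule-depolymerising kinesin gene Kif2c went from 28.1 ± 3.94 to 80.3 ± 7.83 CPM (1.51), the chromokinesin gene Kif4 from 18.7 ± 1.86 to 57 ± 5.76 CPM (1.60), the Aurora A activator gene Tpx2 from 45.9 ± 4.91 to 123 ± 6.11 CPM (1.43) and Dlgap5, which encodes a spindle-stabilising protein, from 49.1 ± 6.22 to 78.4 ± 5.72 CPM (0.68).

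Of 6 midzone and cytokinesis genes 5 rose. Prc1, which cross-links the antiparallel microtubules of the midzone, had 31.1, 27.9, 30.3 and 31.7 CPM in WT 1 to WT 4. It had 89.6, 95, 78.5 and 102 CPM in KO 1 to KO 4 (log2 difference 1.59, SE 0.11, adjusted p = 4.27e-07). Anln, which encodes the scaffold anillin of the contractile ring, had 137, 128, 163 and 142 CPM in WT 1 to WT 4 and 156, 189.8, 160.4 and 172 CPM in KO 1 to KO 4. It did not pass (log2 difference 0.25, 95% interval 0.02 to 0.48, adjusted p = 0.0632), and KO 1 and KO 3 lay below WT 3. With DESeq2 it did (0.32, adjusted p = 0.0409), and so it did without WT 3 (0.34, adjusted p = 0.0293), without KO 1 (0.31, adjusted p = 0.0474) or without KO 3 (0.30, adjusted p = 0.0488). With upper-quartile scaling its difference was 0.011 (adjusted p = 0.934) and with ribosomal protein scaling 0.073 (adjusted p = 0.642). Under the same scalings Pttg1 had 0.019 and 0.082, and Nusap1 had 0.14 and 0.19. The RhoA activator gene Ect2 went from 30.7 ± 3.29 to 84.5 ± 9.45 CPM (1.46). The midzone kinesin genes Kif20a, Kif20b and Kif23 went from 55.3 ± 8.69 to 141 ± 15.7 CPM (1.35), from 116 ± 19 to 185 ± 23.1 CPM (0.68) and from 94.7 ± 11.4 to 162 ± 22.4 CPM (0.77).

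Levels of the members were closer to each other in the libraries labelled KO. Per kilobase of annotated exon, the SD of the mean log2 CPM over 42 members was 1.44 with the WT label and 1.17 with the KO label. In the libraries labelled WT the highest levels per kilobase were those of Cenpf (51.4 CPM per kb), Cenpe (40.5), Cdc20 (33.0) and Top2a (27.5). The lowest were those of Cdk1 (0.706), Cdc25c (1.03), Aurkb (1.31) and Knstrn (1.32). In the libraries labelled KO the order began with Top2a (103), Cenpf (92.4), Mki67 (57.7) and Cdc20 (52.0), and ended with Cdk1 (4.43), Knstrn (3.37) and Cdc25c (2.57). Cenpe, which did not pass, went from place 2 to place 7 in that order while Top2a went from place 4 to place 1. Over the 42 members, the log2 difference and the level per kilobase with the WT label had a Spearman correlation of -0.56. This is a description only, since the difference contains the WT level and the members share all 8 libraries.

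The spread between replicates was wider with the WT label. The median coefficient of variation over the members was 14.9% in the libraries labelled WT (highest 34.8%) and 9.52% in those labelled KO (highest 23.6%), and it was higher with the WT label for 30 members. The members shared low and high libraries. WT 2 was the lowest of its group for 32 members and WT 4 the highest for 22, while KO 3 was the lowest of its group for 28 and KO 2 the highest for 22. The mean log2 CPM over the members was 4.86 in WT 2 and 5.06 to 5.23 in the other libraries labelled WT. It was 6.26 in KO 3 and 6.42 to 6.46 in the other libraries labelled KO. The 42 genes took 0.281% to 0.360% of all counts with the WT label and 0.589% to 0.642% with the KO label. Between-library shifts of this size were smaller than the gap of 5.23 to 6.26 between the groups.

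Subunits of the same complex had log2 differences of different size. The NDC80 complex holds its 4 subunits in equal number. Spc24 went from 3.41 ± 1.06 to 20.5 ± 3.28 CPM (2.59), Spc25 moved by 1.19, Nuf2 from 29.2 ± 1.62 to 46.1 ± 2.45 CPM (0.66) and Ndc80 from 50.03 ± 8.59 to 76.9 ± 5.23 CPM (0.62). The log2 ratio of Ndc80 to Spc24 counts was 3.89, 4.20, 4.06 and 3.52 in WT 1 to WT 4 and 1.69, 2.12, 1.99 and 1.86 in KO 1 to KO 4. It thus fell by 2.003 on the log2 scale, with no overlap between the groups. For Ndc80 to Nuf2 the ratio was 0.76 ± 0.32 and 0.74 ± 0.05 (SD, n = 4 each), with overlapping groups. In the passenger complex the ratio of Aurkb to Cdca8 was -4.11 ± 0.40 with the WT label and -2.06 ± 0.18 with the KO label (SD, n = 4 each). Aurkb to Birc5 differed by 0.63, with overlapping groups, and only WT 2, at 0.29, lay above the range of -0.50 to -0.02 of the libraries labelled KO. The ratios were chosen after the unequal differences were seen, so they are given as values with no test. A ratio within a library does not depend on scaling.

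**Figure D3:**
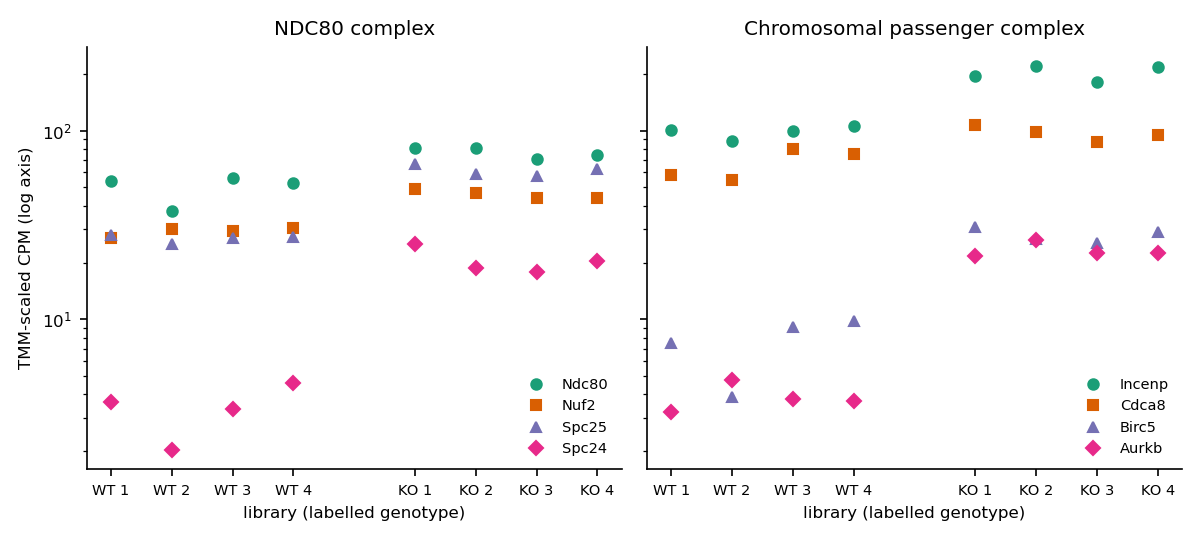
TMM-scaled CPM (log axis) of the subunits of the NDC80 complex (left) and of the chromosomal passenger complex (right) in each library. Spc24 and Aurkb lie under 5 CPM in every library labelled WT and above 17 CPM in every library labelled KO, while Ndc80 and Cdca8 move less.

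Some members share exon bases with a neighbour, and the strand setting of the counting is not stated in the labels. Exons of 12 members overlapped another gene in the annotation. The longest shares were 29.3% of Kif20a exon bases with Cdc23 on the opposite strand, 22.8% of Ube2c with Tnnc2, 15.1% of Kif4 with Pdzd11, 12.7% of Cdc25c with Gm3550, 12.5% of Ccna2 with Exosc9 and 11.1% of Prc1 with Rccd1. Cdc23 (1.15), Pdzd11 (1.44), Gm3550 (0.99), Exosc9 (0.90) and Rccd1 (0.61) were higher too, and Tnnc2, at 1.33 ± 0.399 and 0.763 ± 0.444 CPM (SD, n = 4), did not pass. Levels of these members are uncertain by what such reads contribute, which was not tested. A named pseudogene exists for 3 members. Ccnb1-ps had 136 counts over all libraries against 7328 for Ccnb1, and Ccnb2-ps had 390 against 3104 for Ccnb2. Kif4-ps went the other way from Kif4: it fell by 2.28 on the log2 scale (7.84 ± 0.376 to 1.62 ± 0.650 CPM, SD, n = 4, edgeR adjusted p = 3.43e-05). How reads were shared between gene and copy was not tested.

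Other genes of mitosis also rose, with smaller differences at the median. Of 126 further mitotic genes in 7 lists, 98 were higher, 2 were lower and 26 did not pass, with a median log2 difference of 0.66. By the same call, 25.3% of all tested genes were higher and 28.2% were lower. Among protein-coding genes in the abundance range of the members, 43.6% were higher, with a median log2 difference of 0.23. Of 8 of the 126 genes with a difference below 0, the same count of 2 had an unadjusted p under 0.05 (edgeR), and DESeq2 also called 2 lower. With scaling on ribosomal protein genes 76 were higher and 3 lower, and with upper-quartile scaling 75 and 7. Condensins, which compact mitotic chromosomes, had 7 of 8 genes higher (median 0.95), among them Ncapg2 (61.1 ± 4.04 to 175 ± 20.5 CPM) and Ncaph2 (28.2 ± 5.65 to 99.9 ± 8.66 CPM). Cohesin and its regulators had 11 of 15 higher and 0 lower (0.59). The lowest p there were those of Cdca5, which encodes the cohesion factor sororin (4.82 ± 0.54 to 27.1 ± 4.09 CPM, log2 difference 2.49), and Sgo2a, which encodes a shugoshin that shields cohesin (9.65 ± 2.26 to 33 ± 3.29 CPM, log2 difference 1.78). Of 17 APC/C subunits and regulators, 11 were higher and 0 lower (0.46). Fbxo5, which encodes the APC/C inhibitor EMI1, had a log2 difference of 1.61 and the subunit gene Cdc23 one of 1.15.

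Other kinetochore and checkpoint genes were higher in 30 of 35 cases and lower in 0 (median 0.79). The centromere protein gene Cenpb went from 11.5 ± 1.29 to 46.1 ± 6.28 CPM (2.00). Other spindle, centrosome and cytokinesis genes were higher in 19 of 23 cases and lower in 0 (0.71), with Cep55 at 1.37 and the spindle kinesin gene Kif15 at 1.52. Of 15 regulators of mitotic entry and exit, 10 were higher and 1 was lower (median 0.60). Among the CDC25 phosphatases that activate cyclin-dependent kinases, Cdc25a went from 29 ± 2.29 to 85.3 ± 7.0 CPM (1.56) and Cdc25c rose as given above. Cdc25b went the other way, from 65, 90.6, 71.8 and 65.8 CPM in WT 1 to WT 4 to 29.4, 33.6, 46.1 and 34.6 CPM in KO 1 to KO 4 (log2 difference -1.03, SE 0.152, adjusted p = 0.000111), with no overlap. Wee1, the kinase that inhibits CDK1, rose (16.8 ± 4.52 to 48.8 ± 1.49 CPM, log2 difference 1.54). Among 13 genes of MuvB, B-MYB, FOXM1, NF-Y and related E2F factors, of which MuvB and NF-Y act on the words shown above, 10 were higher and 1 lower (median 0.93). E2f8 (3.96 ± 0.894 to 16.6 ± 1.07 CPM, log2 difference 2.07) and E2f4 (17.8 ± 0.966 to 44.4 ± 3.65 CPM, log2 difference 1.32) had the lowest p. Lin54, which encodes the MuvB subunit that touches the CHR, fell from 58.6 ± 7.17 to 34 ± 3.58 CPM (log2 difference -0.78, SE 0.121, adjusted p = 0.000158).

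**Figure D4:**
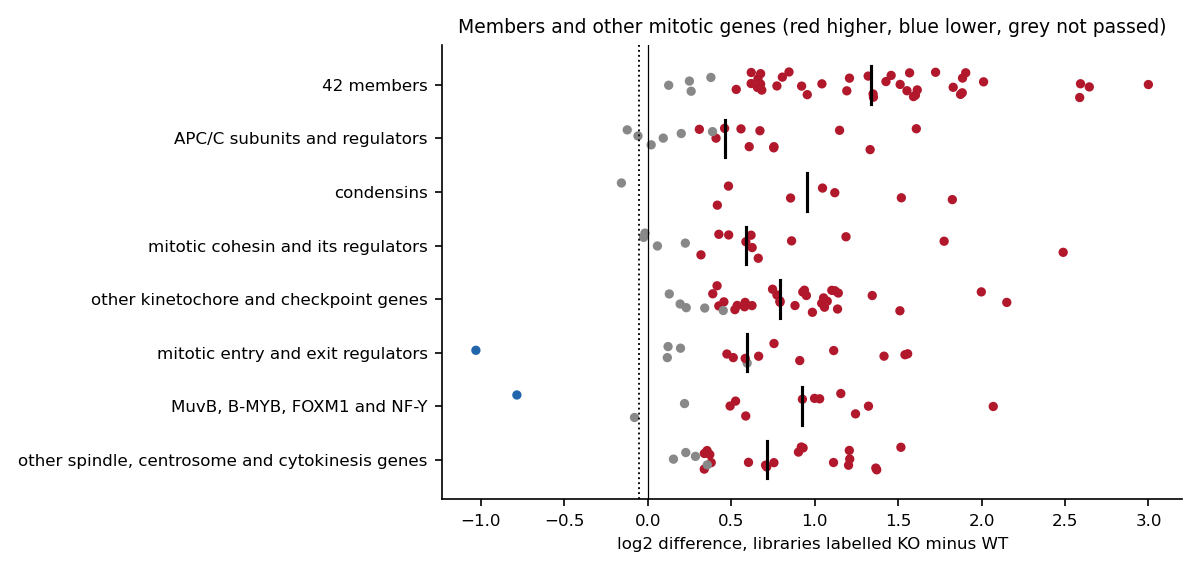
Log2 difference between the libraries labelled KO and WT for the 42 members and for 126 other mitotic genes in 7 lists. Each point is a gene (red higher, blue lower, grey not passed), bars are medians and the dotted line is the median of all tested genes. The 2 blue points are Cdc25b (-1.03) and Lin54 (-0.78).

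The promoter words were counted in the 250 bases before the start, on both strands, for the 34 members with a RefSeq entry and for 27025 genes. A CHR word was found in 16 members (47.1%) and in 28.1% of all genes. By word, TTTGAA was in 11 members (32.4% against 18.3% of genes) and TTTAAA in 6 (17.6% against 13.7%). CCAAT was in 24 members (70.6% against 37.5%), and 2 or more CCAAT boxes were in 17 (of 34, against 11.5% of all genes). The GC box GGGCGG was in 22 members (64.7% against 35.4%). The 27025 genes include genes that were not tested here, while every member was tested. Among tested genes with an entry, 7984 had a GC box and 6389 had none. For a CHR word these counts were 3161 and 11212, and for CCAAT 5654 and 8719. Both a CHR word and a CCAAT box were in 14 members (41.2% against 10.1% of genes): Mki67, Top2a, Ccnb1, Ccnb2, Cdk1, Plk1, Cdc20, Ube2c, Espl1, Cenpa, Cenpf, Kif11, Prc1 and Ect2. Each word was counted by itself also where words share bases, and a gene with several starts counted where any start had the word. A match is a stretch of letters and shows no binding.

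The differences of the members are given by class of word. All 14 with both words were higher, with a median log2 difference of 1.60 (0.66 for Cdc20 to 3.00 for Mki67). Of 10 members with CCAAT alone 9 were higher (median 0.79), and of 8 members with neither word 5 were higher (median 0.64). Birc5 and Kif2c, with a CHR word alone, were both higher (median 1.70). By the GC box, the median was 1.51 for the 22 members with it and 0.67 for the 12 without. Of the 4 members that did not pass, Cenpe had CCAAT alone, and Pttg1, Nusap1 and Anln had neither. The 8 members with no entry were Aurkb, Ccna2, Cdc25c, Dlgap5, Incenp, Kif20a, Spc24 and Tpx2, all higher (median 1.39). These are counts over few genes, with no test. Over all tested genes with an entry, the median was 0.01 for the 1168 genes with both words and -0.04 for the 13205 genes without. Of these, 31.2% against 28.9% were higher. By the GC box the median was 0.11 with it and -0.27 without, and 34.6% against 22.2% were higher. By a CHR word it was -0.10 and -0.01, and 27.6% against 29.5% were higher. By CCAAT it was 0.05 and -0.09, and 31.9% against 27.3% were higher.

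**Figure D5:**
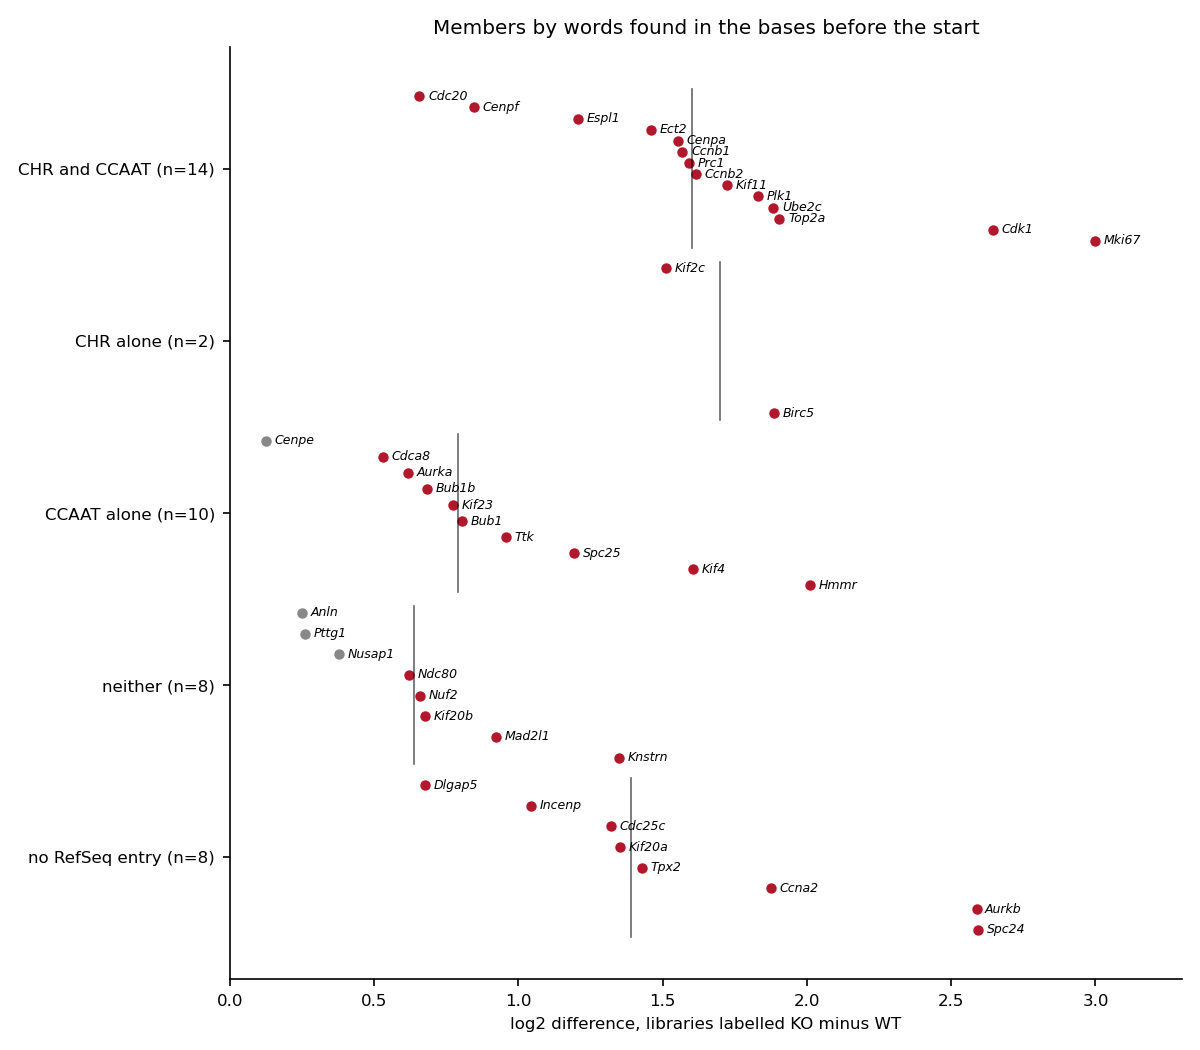
Log2 difference between the libraries labelled KO and WT for each member, by the words in the 250 bases before its RefSeq start. Points are genes (red higher, grey not passed) and vertical lines are the medians of each class. The 14 members with both words have a median of 1.60 and the 8 with neither have one of 0.64.

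Positions of the words are described for the members alone, in windows set from these same positions, so no comparison with other genes is drawn. A CHR word began within 50 bases of the start in 10 of 34 members. These were Top2a, Ccnb1, Cdk1, Plk1, Cdc20, Ube2c, Espl1, Cenpa, Kif11 and Prc1, with a median log2 difference of 1.66. A pair of CCAAT boxes began 31 to 34 bases apart in 8 members. These were Ccnb1, Ccnb2, Cdk1, Aurka, Cdca8, Ube2c, Spc25 and Hmmr, with differences from 0.53 for Cdca8 to 2.65 for Cdk1. In the Cdk1 sequence above, these boxes began 80 and 48 bases before the start, and in Ube2c 88 and 57 bases before it. Ube2c held a further such pair, at 186 and 155 bases before the start.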

How the data were processed

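The authors deposited raw counts per gene for 8 libraries, as whole numbers with no normalization. Per the labels, total RNA was taken with TRIzol, 5 ng went into each library, ribosomal RNA was removed and the SMART-seq kit adds molecular identifiers. Per the submitters' processing notes, the build was mm10 and the tools included STAR, Trim Galore and featureCounts 1.5.0, with no roles given. How the identifiers were used, the strand setting and the annotation release: not given in the sources used here. Of 55401 genes, 55141 matched GENCODE M21, and 0 columns were left unused. Counts were tested with edgeR 4.0.16 in R 4.3.3 (filterByExpr, TMM, quasi-likelihood with genotype as its term), and the steps were tested on simulated data. In the simulation a small part of the genes changed, up or down at random. In these data 12853 genes passed, so that check does not bear on the choice of scaling here. Intervals are 95% intervals of the fit. Replicates differed beyond counting noise (chi-square per degree of freedom 7.34 to 26.5 for pairs in a group).

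The members and lists were chosen with earlier results of these data known. Per library, the text gives the members with the lowest and highest p of each role and those that did not pass, and for further mitotic lists the 2 lowest p and genes that fell. A gene that this rule names is not reported here. Neighbours, copies and marker genes named singly were chosen after their values were seen. Marker lists were of germ, Sertoli, Leydig, stromal, endothelial, macrophage and erythroid genes. Alternatives were DESeq2 1.42.0, 3 other scalings, 2 other filters, robust dispersion, a replicate block and leaving out each library. Leaving out KO 4 and WT 2 together, and the subunit ratios, were chosen after seeing the data. RefSeq promoters were matched by symbol.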

Additional observations from a re-analysis of the deposited data

Results flagged for a closer look

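In 100 groups of 4 libraries examined (each member, Tet1 and each marker sum, by label), 9 had 1 library that stood far from the other 3, where chance gives about 1 in 20. Among the members these were Aurkb in KO 2 (26.4 CPM), Ube2c in WT 4 (18.3 CPM), Ndc80 in WT 2 (37.3 CPM) and Kif11 in KO 3 (123 CPM). Each of these genes rose and had groups that did not overlap. Among the marker sums, KO 4 stood apart in Leydig markers (1811 CPM), Sertoli markers (95.8 CPM) and erythroid markers (21.4 CPM). WT 2 stood apart in Leydig markers (36.5 CPM) and stroma markers (189 CPM).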

How the results depend on the processing

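Over 17 alternatives, 705 of 714 member values kept their direction and their side of the threshold, and 38 members did so throughout. The exceptions were Cenpe, which turned to -0.046 with ribosomal protein scaling and -0.11 with upper-quartile scaling, Cdca8 with the latter, and the passes of Anln and Nusap1 given above. Members that rose numbered 37 (upper-quartile) to 39, and 0 fell under any alternative. Leaving out 1 library each gave 38 to 39 members higher and medians of 1.29 to 1.40. Upper-quartile scaling moved the members' median from 1.33 to 1.09, the median of all genes from -0.05 to -0.29 and the other mitotic genes that fell from 2 to 7. Ribosomal protein scaling gave medians of 1.16 and -0.22, DESeq2 an all-gene median of -0.21 and no low-count filter one of -0.22. The DESeq2 fit also had no low-count filter, so its all-gene median is not over the same genes as -0.05. RLE scaling on filtered genes gave -0.03. With the replicate block, 38 members and 93 other mitotic genes were higher, and 11518 genes passed in all against 12853 without it. The replicate numbers were not taken to pair the libraries, since same-numbered libraries deviated with correlations of 0.21, -0.24, -0.15 and -0.01. The first is for KO 1 and WT 1, whose library names share a number of unstated meaning, and 39 members were higher without KO 1 and 38 without WT 1. For unlike numbers the correlations ran from -0.25 to 0.28, so these values cannot show whether KO 1 and WT 1 are related. With 4 libraries a group, the 95% intervals of Pttg1, Cenpe and Nusap1 include 0 and do not show that these genes were unchanged.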
